A study of Mus musculus with 8 samples.

Results

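Tbp and Nono are genes of the nuclear transcription and RNA-processing machinery whose transcripts are candidates for reference genes in the pressure-loaded mouse heart. Each was measured by 1 probe, CUST_7_PI419532418 for Tbp and CUST_11_PI419532418 for Nono, chosen by name from the array files. These are 2 of the 60930 probes on the array that are not controls. They belong to a panel of 15 probes, each printed as 20 spots, whose genes are the 15 that the files name apart from controls. The choice rested on the processed signal, on the flag for spots well above background, and on level and stability across arrays and between surgery groups. Those measures are therefore given as a description, and nothing is read from whether the 2 genes passed a threshold on them.

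The study compared wild-type male C57BL/6J mice 4 weeks after aortic banding with mice after sham surgery, using total RNA of the heart on 1-colour (Cy3) Agilent arrays. There were 4 banded and 4 sham arrays, each from a separately numbered mouse. The age given for the mice was 8 to 10 weeks and the body weight 24 to 26 g. Whether these hold for the time of surgery or of tissue collection is not settled here. In banding, the descending aorta was tied with silk against a 26-gauge needle, which raises the pressure against which the heart pumps, and both groups had an operation. Whole hearts hold many cell types, so fewer cells of a type and less RNA per cell cannot be told apart. Probes for heart cell markers are not named in the files, so the tissue label was not checked against markers here.

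TBP, the TATA-binding protein, is the DNA-binding subunit of the general transcription factor TFIID and also serves the complexes that recruit RNA polymerases I and III. NONO (p54nrb) is an RNA- and DNA-binding protein that pairs with SFPQ and PSPC1 in paraspeckles, nuclear bodies built on the long noncoding RNA Neat1, and takes part in splicing, transcription and DNA repair. Loss of NONO in humans is known to cause a developmental syndrome with cardiomyopathy. A reference gene is one whose level is assumed constant, so that other genes can be read against it.

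The promoters of both genes are shown because, among the named genes, each kept its steadiest ratio across arrays to the other. The arrays measured no promoter, and the sequences say nothing about that ratio. The windows run from 250 bases before to 30 bases after the start site of RefSeq's promoter table, on the plus strand of GRCm38.p6 (sequences from RefSeq). That of Tbp is chr17:15499638-15499917, around a start site at 15499888. That of Nono is chrX:101429401-101429680, around a start site at 101429651. For Nono this start site lies inside the annotated gene, which begins upstream at 101429560, so part of the window is within the gene. Capitals mark matches, on either strand, to a GC box motif with the letters GGGCGG, a promoter box with the letters CCAAT, an ETS core with the letters CGGAAG or a TATA box with the letters TATAAA.
Tbp: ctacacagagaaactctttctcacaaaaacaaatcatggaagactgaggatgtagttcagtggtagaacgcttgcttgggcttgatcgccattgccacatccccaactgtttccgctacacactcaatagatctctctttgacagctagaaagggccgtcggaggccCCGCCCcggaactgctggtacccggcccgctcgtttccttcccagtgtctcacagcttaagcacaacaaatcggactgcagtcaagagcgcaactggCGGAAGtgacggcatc
Nono: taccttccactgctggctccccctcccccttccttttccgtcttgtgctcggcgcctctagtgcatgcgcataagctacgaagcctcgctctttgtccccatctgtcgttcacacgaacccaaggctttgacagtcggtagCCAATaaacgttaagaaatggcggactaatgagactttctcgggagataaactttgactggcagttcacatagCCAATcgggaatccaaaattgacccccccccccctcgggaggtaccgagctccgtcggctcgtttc
The Tbp window held 1 GC box (on the minus strand, first base at -83) and 1 ETS core (on the plus strand, first base at 15 after the start). The Nono window held 2 matches to CCAAT on the plus strand, with first bases at -109 and -36 from that start site. The match at -36 lies within the annotated gene. The motif TATAAA was in neither window, and no matches overlapped. Of 32851 RefSeq windows of the same length, 13.1% held the TATA box motif and 34.7% the GC box motif. The letters CCAAT were in 36.1% of them and the ETS core in 16%. The matches describe the letters of these windows only. The array files give the probes no coordinates and no sequences. The Tbp probe carries the accession NM_013684.3, a gene on chromosome 17 from 15499888 to 15517427. The Nono probe carries NM_023144.2, a gene on chromosome X from 101429560 to 101448593 (both GRCm38.p6).

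The arrays had a structure that bears on every value. All lay on 1 slide in 2 rows. Row 2 held banded 2, 3 and 4 and sham 1, and row 1 held banded 1 and sham 2, 3 and 4. Each array resembled 1 neighbour closely: log2 differences over 15117 bright probes spread 0.983 times as widely as spot noise for sham 3 and sham 4, and 1.33 times for banded 2 and banded 3. They spread 0.962 times for banded 1 and sham 2, which carry different surgery labels, and 1.17 times for banded 4 and sham 1. For the other pairs the ratio was between 2.59 and 5.23. Close arrays of the same surgery group were therefore averaged and counted as 1 sample, which leaves 3 banded and 3 sham samples. The close pairs that cross the surgery labels were kept as samples of opposite groups, as labelled. The fit of banded against sham treats these samples as independent, and its errors make no allowance for their closeness. Every banded minus sham value below takes the labels as given, and whether arrays share RNA or names were exchanged was not tested. Of 10 probes per array for the E1A control transcripts, 2 or 3 were well above background, so no external standard for total signal was used.

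Both genes were well above the background of the arrays. All 20 spots of each probe were well above background on each of the 8 arrays, and no spot was saturated. At most 1 spot per array was set aside as an outlier. Across the spots of 1 array the log2 signal had an SD from 0.044 to 0.10 for Tbp and from 0.041 to 0.072 for Nono. The standard error of an array mean over its spots was at most 0.023 for Tbp and 0.016 for Nono. Spots are repeats of a probe and not replicates of a heart, so this error covers the reading of 1 array only.

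Before any scaling between arrays, both signals differed widely. Tbp had a processed signal of 796, 398, 385 and 524 units in banded hearts 1 to 4, against 529, 631, 583 and 583 units in sham hearts 1 to 4. Nono had 5969, 3617, 3428 and 4398 units in banded hearts, against 4401, 5132, 4659 and 4910 units in sham hearts. For both genes banded 1 was the highest and banded 3 the lowest of the 8 arrays, and the surgery groups overlapped because the banded range enclosed the sham range. The highest array was 2.07-fold above the lowest for Tbp and 1.74-fold for Nono. The 75th percentile of signal over all probes had the same ends, with 255 units in banded 1 and 143 units in banded 3.

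Scaling each array on the 75th percentile of its probes removed most of that spread. Tbp then stood at log2 levels of 1.64, 1.34, 1.43 and 1.59 in banded hearts 1 to 4, against 1.57, 1.61, 1.64 and 1.52 in sham hearts. Banded 2 and banded 3 lay below all other arrays, and the 2 groups overlapped. Nono stood at 4.55, 4.52, 4.58 and 4.66 in banded hearts, against 4.63, 4.64, 4.64 and 4.59 in sham hearts. Nono showed no such low arrays, with a highest array 1.1-fold above the lowest, against 1.24-fold for Tbp. Within the close pairs of arrays, Nono differed by 0.028 to 0.088 on the log2 scale and Tbp by 0.014 to 0.12. For Nono, the whole range of the 8 arrays was 0.14.

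**Figure D1:**
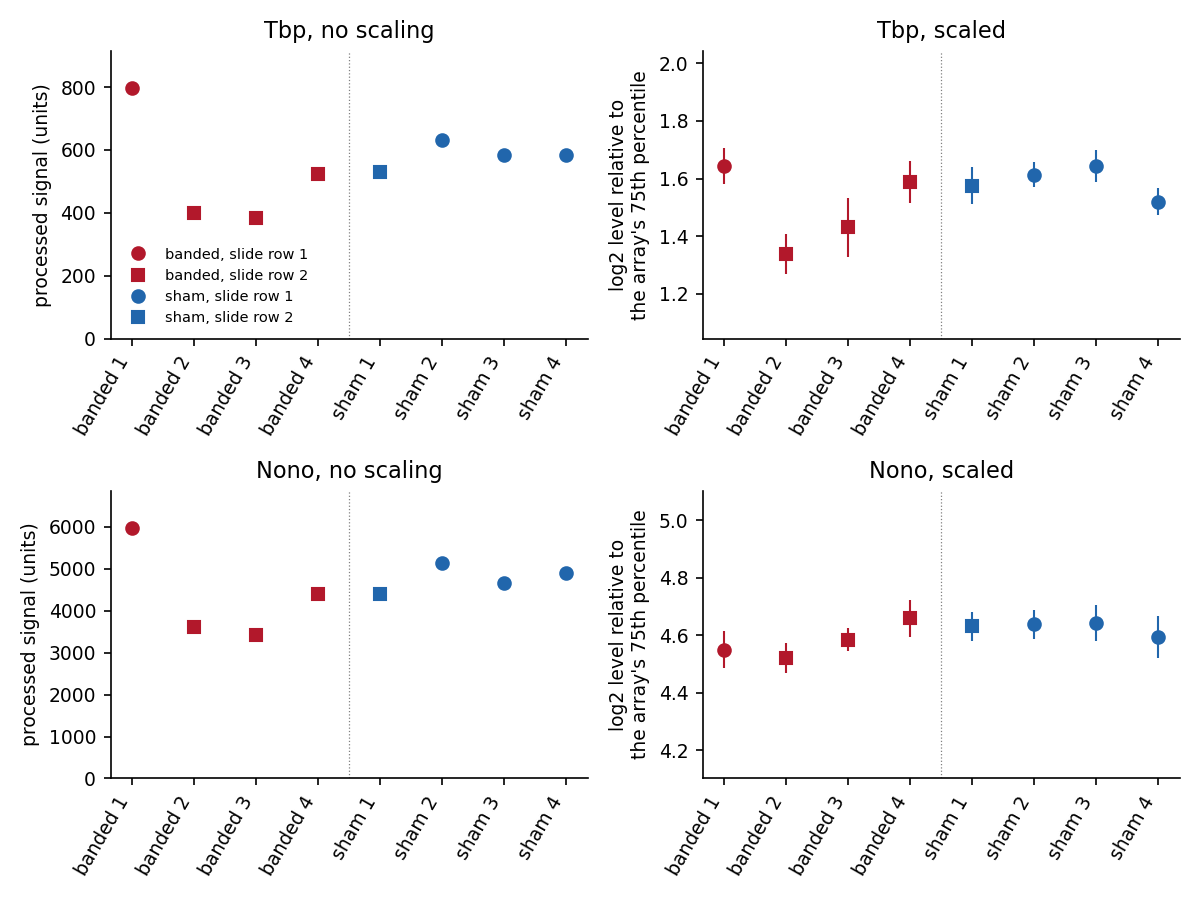
Tbp (top) and Nono (bottom) on each array, as processed signal in units from a zero baseline (left) and as log2 level relative to the array's 75th percentile on axes 1 log2 unit high (right), where bars show the SD over repeat spots. Red is banded and blue is sham, with circles for slide row 1 and squares for slide row 2. Without scaling Tbp ran from 796 units in banded 1 to 385 in banded 3, and with scaling from 1.64 to 1.34.

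For both genes the mean difference between banded and sham hearts was smaller in size than the SD of the banded samples and larger than that of the sham samples. Tbp had a scaled log2 level of 1.54 ± 0.14 (SD, n = 3) in banded hearts and 1.59 ± 0.021 (SD, n = 3) in sham hearts, a difference of -0.051 with an SE of 0.17, or a ratio of 0.965. Nono had 4.59 ± 0.062 (SD, n = 3) in banded hearts and 4.63 ± 0.010 (SD, n = 3) in sham hearts, a difference of -0.042 with an SE of 0.16, or a ratio of 0.972. The SE comes from the limma fit over all probes, which draws each gene's variance toward that of the other probes, so it exceeds what the SDs of these genes alone would give. Both SDs were smaller in sham than in banded hearts, a contrast that was not tested. Its size depends on the averaging, since sham 3 and sham 4 were the highest and lowest sham arrays for both genes. Over 4 separate arrays the SD was 0.14 in banded and 0.053 in sham hearts for Tbp, and 0.059 and 0.022 for Nono. In the limma fit 0 of the 2 genes passed an adjusted p of 0.05, beside 0% of the 35786 probes tested. At an unadjusted p under 0.05 it was also 0 of the 2, beside 2.03% of all probes tested by limma. The genes were chosen for stability between these groups, so nothing is read from these counts. The median size of a log2 difference over all probes was 0.17. With 8 arrays counted separately the differences were -0.088 for Tbp (SE 0.14) and -0.047 for Nono (SE 0.12).

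Within slide rows, 1 array stands alone on one side, so these are values without an error. In row 1 the scaled Tbp level was 1.64 in banded 1 and averaged 1.59 over 3 sham arrays, a difference of 0.052. In row 2 it averaged 1.45 over 3 banded arrays and was 1.57 in sham 1, a difference of -0.12. The Tbp difference thus had opposite signs in the 2 rows. For Nono the corresponding differences were -0.074 in row 1 and -0.043 in row 2. Without scaling, banded minus sham was 0.41 in row 1 and -0.29 in row 2 for Tbp, and 0.29 and -0.21 for Nono.

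The slide row separated both genes more clearly than surgery did when the arrays were not scaled. Without scaling Tbp was at 0.706 and Nono at 0.765 times the row 1 level in row 2, over 4 arrays per row. For both genes every row 2 array lay below every row 1 array, as it did for 28.5% of 35684 probes. After scaling on the 75th percentile the row 2 minus row 1 difference was -0.12 for Tbp (SE 0.11) and -0.0069 for Nono (SE 0.10), and the rows overlapped for both genes. On that scale 10.2% of probes had every row 2 array below every row 1 array. With all 8 arrays fitted separately by limma, 0 of the 2 genes passed an adjusted p of 0.05 between rows, beside 19.7% of all probes. The close pairs all lie within rows. With each close pair counted as 1 sample, 1427 of the 35786 probes passed, against 7035 with 8 separate arrays, and the SE was 0.22 for Tbp and 0.21 for Nono. At an unadjusted p under 0.05 with 8 arrays, limma called 0 of the 2 genes, beside 32.6% of probes. Stability across arrays was among the reasons for choosing these genes, so nothing is read from these counts.

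A sign of RNA quality and labelling moved with the slide row. The 3′ minus 5′ difference of the mouse PGK1 control probes was 4.39 to 4.53 log2 units in row 2 and 3.85 to 4.24 in row 1. The 5′ probe alone read 1532 to 1614 units in row 2 and 1723 to 3634 units in row 1, with its highest value on banded 1, where unscaled Tbp and Nono were also highest. The mouse GAPDH control probes had a 3′ minus 5′ difference of 0.561 to 0.667 in row 2 and 0.335 to 0.569 in row 1, ranges that overlap. The part of these controls in the levels of Tbp and Nono was not tested.

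Stability was then set beside the other named genes. Of the 15 panel genes, 14 were well above background on all arrays. The exception was Ldhal6b. After 75th-percentile scaling, Nono had the smallest SD over the 8 arrays (0.049, place 1 of 14) and Tbp the next (0.11). The neighbour above Tbp was G6pd2 at 0.13, a retrogene copy of the pentose phosphate enzyme gene G6pdx, whose transcript the probe may also read. The end of the order was B2m, which encodes beta-2-microglobulin, at 0.60. Among 29491 probes detected on all arrays, 0.0339% had a smaller SD than Nono and 2.61% a smaller SD than Tbp, with a median SD of 0.29. These shares depended on the scaling. For Nono the share was 3.54% with quantile normalization, 3.88% in the authors' deposited table, 5.52% with normexp, 23.4% without scaling and 29.7% on the other 12 named genes. For Tbp the shares under the same settings were 4.51%, 4.62%, 17.8%, 43.4% and 45.4%. Most of those probes were printed as 1 spot, so the members were also read spot by spot. Over 16 Nono spots unflagged on all arrays the median SD of 1 spot was 0.066, below which lay 0.203% of probes. Over 18 Tbp spots it was 0.13, below which lay 4.39%.

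**Figure D2:**
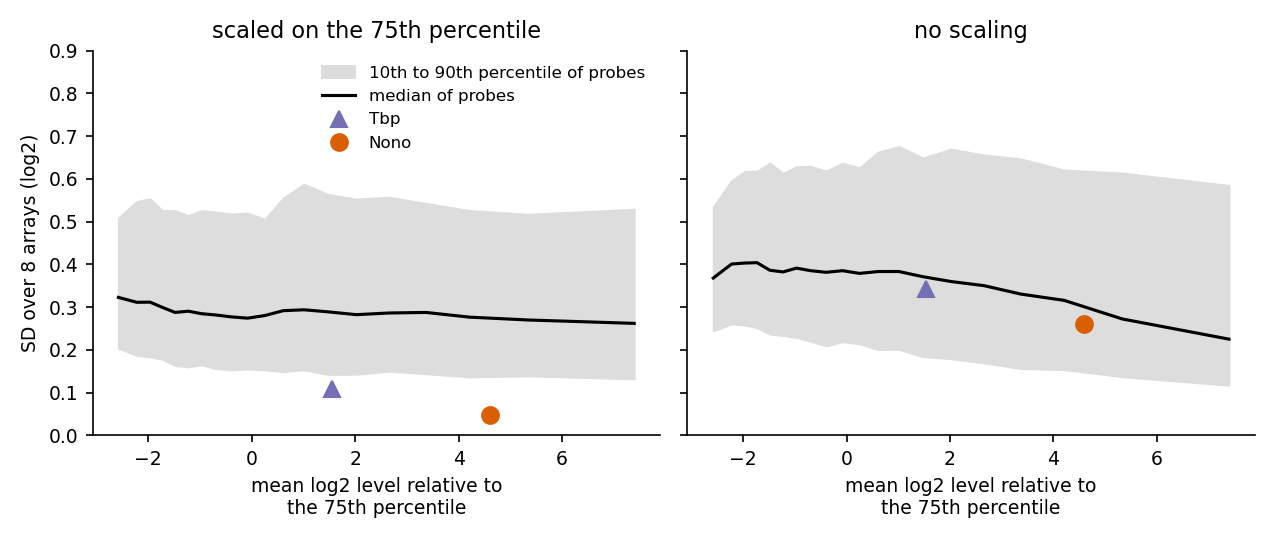
SD over the 8 arrays (log2) against mean log2 level relative to the 75th percentile, for 29491 probes detected on every array, in 20 bins of brightness. The grey band leaves out the lowest 10% and the highest 10% of probes in each bin and the line is the median. With scaling (left) Nono at 0.049 and Tbp at 0.11 lie below the band, and without scaling (right) they lie inside it at 0.26 and 0.34.

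The place of both genes in that order depended on what the arrays were scaled to. Without scaling, Nono had an SD of 0.26 (place 5 of 14) and Tbp 0.34 (place 11), while Gapdh, the glycolytic enzyme, came first at 0.065. With quantile normalization Gapdh was first at 0.070, Nono was in place 2 at 0.11 and Tbp in place 3 at 0.12. The authors' deposited table gave the same places, with SDs of 0.11 for Nono and 0.12 for Tbp. In both settings Gapdh had an SD of 0.070 and Tbp a mean log2 level of 9.08. The deposited table is thus close to a repeat of quantile normalization and not a separate check. With each array scaled on the mean of the other 12 named genes, an alternative added after the data were seen, Nono fell to place 10 (SD 0.30) and Tbp to place 13 (SD 0.38). Those 12 genes are part of their own scale there and the members are not. On that scale Tbp stood at -3.65, -4.55, -4.53 and -4.28 in banded hearts, against -4.31, -3.70, -3.79 and -3.84 in sham hearts. The 4 arrays of row 2 were the lowest 4 for Tbp and for Nono, which was so for 51.5% of probes. On the same scale the row 2 minus row 1 difference was -0.67 for Tbp (SE 0.11) and -0.56 for Nono (SE 0.099).

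**Figure D3:**
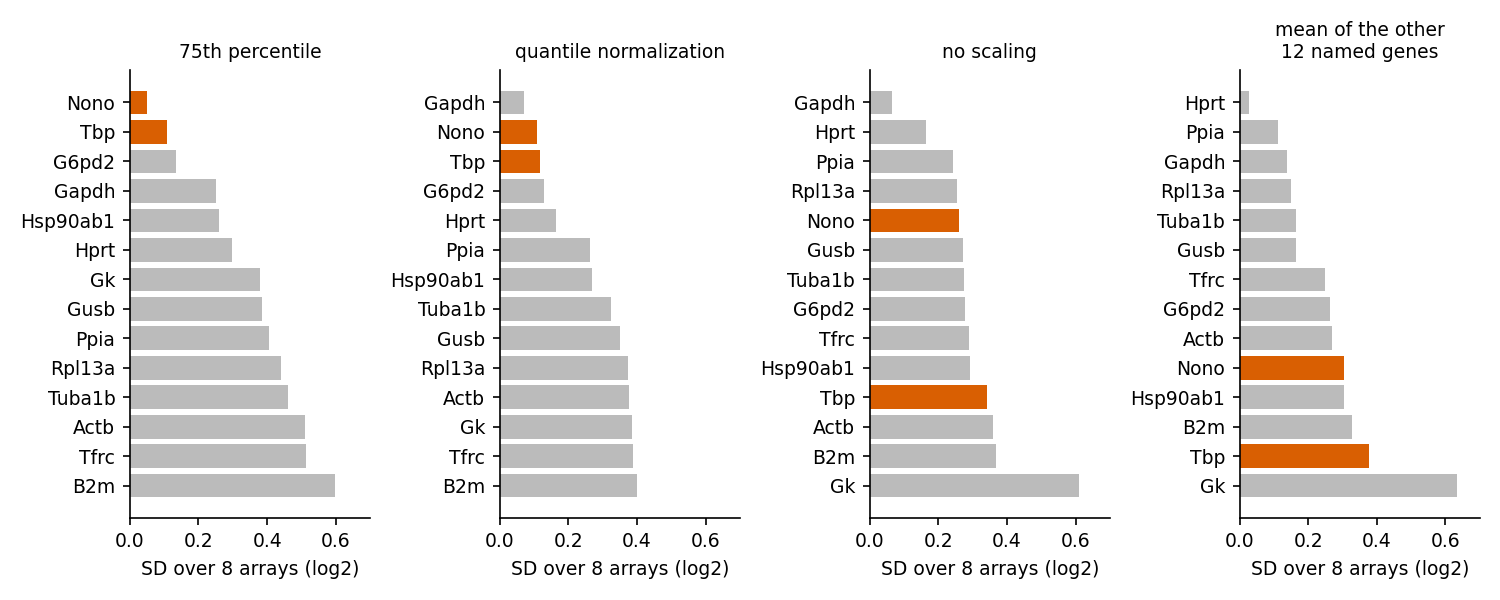
SD of the log2 level over the 8 arrays for the 14 named genes detected on every array, under 4 ways of scaling the arrays, with Tbp and Nono in orange. Bars start at 0. Nono and Tbp are first and second with the 75th percentile, and Nono is in place 10 and Tbp in place 13 on the mean of the other 12 named genes.

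Ratios within an array are unchanged by a scaling that uses 1 factor per array, because that factor cancels. Quantile normalization is not of that kind and does change them. The ratio of the Nono probe to the Tbp probe was 7.50, 9.09, 8.90 and 8.40 in banded hearts 1 to 4, against 8.32, 8.14, 7.99 and 8.42 in sham hearts. Its size has no meaning as a comparison of transcript amounts, since probes differ in efficiency, but its constancy can be compared between arrays. Banded 1 had the lowest ratio and banded 2 the highest, and the 4 sham arrays lay between them. On the log2 scale the ratio averaged 3.05 ± 0.13 (SD, n = 3) in banded hearts and 3.04 ± 0.016 (SD, n = 3) in sham hearts. Over 4 separate arrays the SD of the ratio was 0.12 in banded and 0.033 in sham hearts. Over the 8 arrays its SD was 0.087, and 0.059 with quantile normalization.

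No other named gene kept so constant a ratio to either member. After each other, the closest to both was G6pd2, with an SD of the log2 ratio over 8 arrays of 0.12 to Nono and 0.15 to Tbp. The next was Gapdh for Nono (0.27) and Gk, which encodes glycerol kinase, for Tbp (0.29). The ratio to B2m varied most, at 0.61 for Nono and 0.69 for Tbp. These values describe 8 arrays that include close pairs. When each gene was scored by its mean ratio SD with the other 13 genes, as reference-gene programs do, Nono came in place 9 of 14 (0.37) and Tbp in place 12 (0.42). Hprt, a purine salvage enzyme named here after its values were seen, came first at 0.27.

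**Figure D4:**
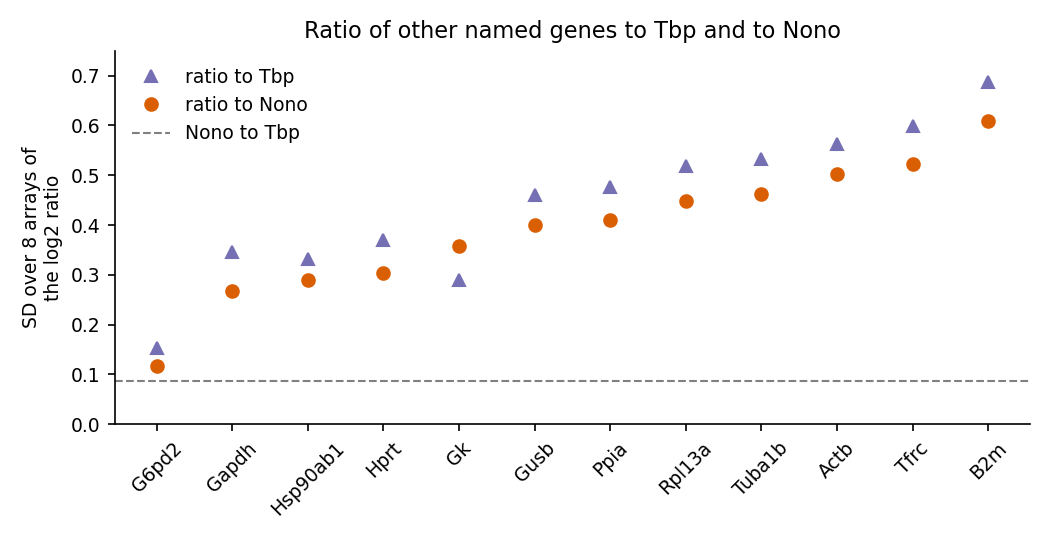
SD over the 8 arrays of the log2 ratio of each of the other 12 named genes to Tbp (triangles) and to Nono (circles). The dashed line is the ratio of Nono to Tbp at 0.087. All points lie above that line, from 0.12 for G6pd2 against Nono to 0.69 for B2m against Tbp.

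Used as reference genes, Tbp and Nono moved the differences of the other 12 named genes all by the same amount. Relative to the 75th percentile, that shift is the members' own mean difference with its sign reversed, so it restates values given above. With each array scaled on the mean of Tbp and Nono, 11 of the 12 genes had a higher estimate in banded than in sham hearts, with a median log2 difference of 0.27. With the 75th percentile it was 10 of 12 with a median of 0.22, and without scaling 10 of 12 with a median of 0.19. The banded samples lay mostly in row 2 and the sham samples mostly in row 1. With the slide row as a term over 8 arrays, a fit added after the data were seen, the median surgery difference on Tbp and Nono was 0.013, with 8 of the 12 genes higher in banded hearts. With the 75th percentile and that term it was -0.034, with 4 of 12 higher. Over all 35786 probes scaled on Tbp and Nono without the row, 58.9% were higher in banded hearts, with a median of 0.057. The share of all probes was 51.7% with the 75th percentile and 46.3% without scaling. For the slide row, the median log2 difference of the 12 genes (row 2 minus row 1) was 0.78 on Tbp and Nono, 0.72 on the 75th percentile and 0.34 without scaling. With Gapdh in their place, a common choice named after its values were seen, the median of the remaining 11 genes was 0.11 for surgery and 0.36 for the slide row. With Actb, which encodes beta-actin and was also named after its values were seen, it was 0.10 for surgery, with 8 of 11 genes higher in banded hearts. For the slide row it was -0.16, with 3 of 11 higher in row 2. Over all probes, 31.4% were higher in banded hearts on Gapdh and 30.4% on Actb. In row 2, 18.9% of all probes were higher on Gapdh and 5.64% on Actb. That share was 56.2% on Tbp and Nono, 49.4% on the 75th percentile and 19.5% without scaling. The median SD of the 12 genes over arrays was 0.44 on Tbp and Nono, 0.40 on the 75th percentile and 0.28 without scaling. No difference among these medians was tested, since all use the same 8 arrays.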

How the data were processed

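Per the file headers, the scans were turned into 1 processed intensity per spot by Feature Extraction 11.0.1.1 (Agilent), background-subtracted and detrended within each array and not scaled between arrays. The outlier, saturation and background flags (0 or 1, other values per spot) are per the file headers. The authors' deposited table holds log2 intensity. Its scaling method was not stated in the labels or headers. The log2 processed intensity was averaged over unflagged spots and centred on each array's 75th percentile over 60915 noncontrol probes, without 15 negative ones. Probes well above background on at least 4 arrays (35786) were fitted with limma 3.58.1 in R 4.3.3 (Benjamini-Hochberg adjustment, threshold 0.05). Files were read with the R package data.table (version 1.17.8). Plots used Python 3.11.15 and matplotlib 3.10.9. The fit was tested on simulated data. The spot SD of 14 panel genes, 0.0854, gave the spot noise of a difference, 0.121. The number of arrays limits the precision. Genes were named through RefSeq accessions, all 15 of which matched. Members, lists, slide row, close arrays and alternatives were chosen with earlier results of these data known. Named were Tbp, Nono, for each the genes with the steadiest ratio, neighbours in the order of SD, and its ends. Beyond that rule, Ldhal6b was named as the panel gene not well above background on all arrays. Hprt and Actb were named after their values were seen. Levels of different probes were not ranked. TFIID, paraspeckle and cell type lists were not analysed here, since the files do not name their probes. The mean signal is not among the columns used here, so normexp (offset 50) was run on the median signal. Mouse numbers 1 to 4 recur in both groups. Correlations of deviations between same-numbered arrays ran from -0.65 to -0.053. Same-numbered arrays always lay in different slide rows, so these correlations cannot tell whether the numbers pair the mice. The main fit used no pairing.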

Additional observations from a re-analysis of the deposited data

How the results depend on the processing

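The surgery difference of Tbp ranged from -0.22 to 0.022 over 15 alternatives and that of Nono from -0.21 to -0.022. With the mean of the other 12 named genes as the scale it was -0.22 for Tbp and -0.21 for Nono. For Nono it was -0.094 with quantile normalization and -0.099 in the authors' deposited table. The slide pair as a block gave 0.022 for Tbp, the only setting with that sign. That estimate rests on the close pairs banded 1 with sham 2 and banded 4 with sham 1. The other slide pairs do not hold both surgery groups and add nothing to it. With the mouse number as a replicate block, which leaves the differences at -0.088 for Tbp and -0.047 for Nono as with 8 separate arrays, 0 probes passed (1423 at an unadjusted p under 0.05, limma). Leaving out 1 array gave -0.10 to -0.031 for Tbp, -0.077 to -0.023 for Nono and 0 to 0 probes past the threshold. The count was 1003 with banded 1 and sham 1 left out, when surgery and slide row coincide, and 1 with array quality weights, against 0 over all 8 arrays.

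Between slide rows, no scaling gave -0.50 for Tbp and -0.39 for Nono, and the other 12 named genes gave -0.67 and -0.56. Nono was at -0.17 with quantile normalization, -0.18 in the authors' deposited table, -0.065 with the percentile over detected probes and -0.13 with normexp. Leaving out 1 array gave -0.16 to -0.074 for Tbp and -0.027 to 0.019 for Nono. The count of probes past the threshold between rows was 7035 over 8 arrays. Separate fits gave 1427 with each close pair counted as 1 sample, and 4620 (without banded 1) to 6398 (without banded 4) with 1 array left out, and 4664 without sham 2.

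The SD over arrays was 0.34 for Tbp and 0.26 for Nono with no scaling, and 0.38 and 0.30 on the other 12 named genes. For Nono it was 0.11 with quantile normalization and 0.11 in the authors' deposited table. Leaving out 1 array gave SDs from 0.076 to 0.12 for Tbp and from 0.039 to 0.052 for Nono, and from 0.067 to 0.094 for the log2 ratio of Nono to Tbp. That ratio SD was 0.056 to 0.095 over 5 other settings. In the order of 14 genes, Tbp moved from place 2 to place 3 with quantile normalization, the array median, normexp and the authors' deposited table, to place 11 with no scaling and to place 13 on the other 12 named genes. Nono moved from place 1 to place 2 with quantile normalization and in the authors' deposited table, to place 5 with no scaling and to place 10 on the other 12 named genes. The cause of these changes was not tested. The normexp and 12-gene settings and the slide row term for the other named genes were chosen after seeing the data.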
